A study of Mus musculus with 30 samples.

Results

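The stretch of chromosome 14 between 20500 and 22500 kb (mouse build GRCm39), known here as the window of Adk and Kat6b, was examined for insertions of gene therapy transposons in mouse liver. It held 2699 of 1232282 nuclear site records in livers treated with piggyBac (PB) vectors and 1335 of 949422 in livers treated with Sleeping Beauty (SB) vectors. These are 4034 of 2181704 nuclear records in all. A record is a position and strand listed for a liver. The window is a stretch in which PB sites exceeded SB sites, and it was chosen for that excess. PB and SB densities in the window are therefore given as a description. A fit over the whole genome is used for its background share of called steps, and its calls inside the window support nothing. The tests concern strands, support numbers and differences among PB livers.

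The study mapped insertions by streptavidin-based enrichment sequencing in genomic DNA from whole livers of TT1 mice, which model tyrosinemia type I. Mice of both groups were Fah KO, without the last enzyme of tyrosine breakdown, and were treated in vivo with either vector system. There were 17 PB livers (numbers 1 to 17) and 13 SB livers (numbers 1 to 13), and untreated livers were not analysed here. The strain background, age, sex, vector dose and length of monitoring before the livers were taken are not given in the sources used here, nor is what sets livers 13 and above apart. Whole liver holds several cell types, so a site cannot be assigned to hepatocytes. A PB liver held 16364 to 124238 nuclear sites and an SB liver 4893 to 120219. Densities below are sites per 10000 nuclear sites of the same liver.

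PB and SB are cut-and-paste DNA transposons. Their transposases insert at short target letters, TTAA for PB and TA for SB, and the target is duplicated on insertion. PB is known to favour open, active chromatin, while SB is known to spread more evenly. Adk encodes adenosine kinase, which turns adenosine into AMP and is strongly expressed in liver. Kat6b encodes a lysine acetyltransferase of the MYST family that modifies histone H3. In the RefSeq gene order of build GRCm38.p6, Ap3m1, a subunit of an adaptor complex for vesicle transport, comes before Adk. The noncoding genes Gm52152 and Gm30363 lie between Adk and Kat6b, and Dupd1, Dusp13 and Samd8 follow Kat6b. The site positions are on GRCm39 and the gene table is on GRCm38.p6, so no position below was placed in a gene, exon, intron or promoter.

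The genome letters at the insertion sites were not available on the build of the sites. The promoter windows of the 2 genes are shown instead, to let the target letters be seen at the gene starts. They come from RefSeq, on the plus strand of GRCm38.p6, and run from 250 bases before to 50 bases after a start of Adk (chr14:21052324-21052623) and of Kat6b (chr14:21499520-21499819). Capitals mark each TA, the SB target.
Adk: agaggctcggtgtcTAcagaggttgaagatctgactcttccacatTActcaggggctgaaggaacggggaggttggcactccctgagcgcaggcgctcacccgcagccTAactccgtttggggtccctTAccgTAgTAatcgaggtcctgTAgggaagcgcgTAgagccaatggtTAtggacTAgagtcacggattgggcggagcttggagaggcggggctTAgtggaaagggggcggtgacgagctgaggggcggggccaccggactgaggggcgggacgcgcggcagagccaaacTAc
Kat6b: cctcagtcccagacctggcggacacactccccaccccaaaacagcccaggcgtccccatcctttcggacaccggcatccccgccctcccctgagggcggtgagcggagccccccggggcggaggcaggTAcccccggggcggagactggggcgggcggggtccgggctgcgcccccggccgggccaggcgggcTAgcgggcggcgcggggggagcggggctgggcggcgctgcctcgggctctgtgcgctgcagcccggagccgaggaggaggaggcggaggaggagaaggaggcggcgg
The Adk window held 12 TA and the Kat6b window 2 TA, and neither held TTAA. RefSeq lists another start of Adk, whose window is not printed and held 5 TA, no TTAA and a GC content of 75.0%. It also lists another start of Kat6b, not printed either, with 2 TA, no TTAA and a GC content of 79.3%. Both motifs read the same on either strand, and every TTAA contains a TA. Of 32851 such mouse promoter windows of 300 bases, 52.4% held TTAA and 99.1% held TA, with a median of 10 TA. GC content was 61.7% in the Adk window shown and 78.3% in that of Kat6b, against a median of 52.7%. The absence of TTAA says only that these letters are not in these 300 bases.

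The window was dense in both groups and denser in PB. Window density was 22.2 ± 2.52 in PB livers (SD, n = 17), against 13.9 ± 2.49 in SB livers (SD, n = 13), and the ratio of the means was 1.59. The PB livers had a lowest value of 18.9, a median of 21.6 and a highest of 29.0, against 8.17, 14.04 and 17.8 in SB livers, so the groups did not overlap. Of 1344 stretches of 2 Mb across the nuclear genome, 0.893% had every PB liver above every SB liver and 0.298% the reverse. Nothing is read from this, because the window was chosen on that contrast. The median stretch had a density of 6.85 in PB livers and 7.28 in SB livers. The window had the rank 4 among these stretches by PB density, 45 by SB density and 2 by the difference PB minus SB.

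The flanking 2 Mb on each side were sparser than the window in both groups. Much of the flank before the window was almost empty. No site of either group lay from 18700 to 19200 kb. From 18500 to 19700 kb no step of 100 kb held more than 4 PB or 9 SB sites. In the flank before the window, PB livers had 5.59 ± 1.18 sites per 10000 (SD, n = 17) and SB livers 4.26 ± 1.43 (SD, n = 13). In the flank after it, PB livers had 3.78 ± 1.06 and SB livers 5.96 ± 1.13. PB density was thus above SB density before the window and below it after the window. The density of the window was 5.03 ± 1.54 times that of its flanks in PB livers and 2.75 ± 0.563 times in SB livers, a ratio of 1.83. The PB values had a lowest value of 3.20, a median of 4.45 and a highest of 8.86, against 1.92, 2.64 and 3.74 in SB livers. In 14 of 17 PB livers this value was above that of every SB liver. These values include the almost empty stretch of the flank before the window. With flanks of 1 Mb the ratio PB over SB was 1.57. With 2 Mb flanks it was 1.56 in livers 1 to 12 only and 1.62 with the records of each group pooled. It was 1.31 in livers 1 to 6 and 1.87 in livers 7 to 12.

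**Figure D1:**
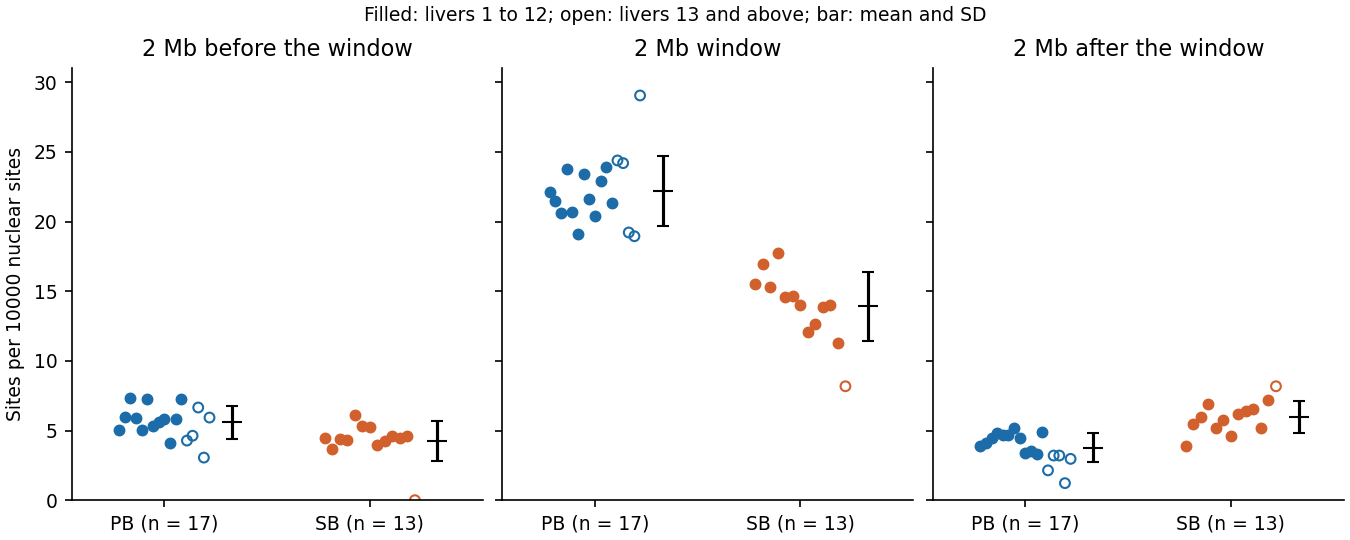
Sites per 10000 nuclear sites (vertical axis) in the 2 Mb before the window, in the window and in the 2 Mb after it, with 1 point per liver and bars for the mean and SD of 17 PB and 13 SB livers. PB and SB livers do not overlap in the window (lowest PB value 18.9, highest SB value 17.8), while they overlap in both flanks.

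The steps of 100 kb at the edges of the window were sparser in PB than its densest steps. The last 100 kb before 20500 kb had 0.431 sites per 10000 in PB livers and 0.684 in SB livers, and the first 100 kb inside had 1.20 in PB and 0.968 in SB. The last 100 kb inside, up to 22500 kb, had 0.481 in PB and 0.318 in SB, and the next 100 kb outside had 0.168 in PB and 0.356 in SB.

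SB liver 13 was the shallowest library. It had 4 window sites of 4893, which is 8.17 per 10000 (95% exact Clopper-Pearson interval 2.23 to 20.9, counting error only), and 4 flank sites, all after the window. SB livers also fell into 2 ranges by their number. SB livers 1 to 6 had 14.6 to 17.8 sites per 10000 in the window and SB livers 7 to 12 had 11.3 to 14.04. These ranges did not overlap. The share of sites on the X chromosome also differed, at 2.26 to 2.59% in SB livers 1 to 6 and 3.80 to 4.23% in SB livers 7 to 12. In PB livers the densities overlapped, at 19.1 to 23.7 for numbers 1 to 6 and 20.4 to 23.9 for numbers 7 to 12, while the X shares were 2.20 to 2.27% in PB livers 1 to 6 and 3.49 to 3.65% in PB livers 7 to 12. The number ranges were taken from an earlier look at these data. Per 10000 autosomal sites, which leaves the X chromosome out of the total, window density was 14.97 to 18.23 in SB livers 1 to 6. In SB livers 7 to 12 it was 11.77 to 14.62, so the ranges did not overlap on this scale either. The cause of the split was not tested. The PB to SB ratio of window density was 1.35 in livers 1 to 6 and 1.71 in livers 7 to 12.

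The PB excess lay mostly in the second of the window's 4 sections of 500 kb. From 21000 to 21500 kb, PB livers had 11.9 ± 1.53 sites per 10000 (8.56 to 15.4) and SB livers 4.89 ± 1.19 (3.12 to 7.23), a ratio of 2.43. This section held 53.7% of the PB density of the window and 35.2% of the SB density. From 20500 to 21000 kb the densities were 4.39 ± 1.23 in PB livers and 4.40 ± 1.08 in SB livers. From 21500 to 22000 kb they were 4.55 ± 0.740 in PB and 3.04 ± 1.07 in SB, and from 22000 to 22500 kb 1.34 ± 0.688 in PB and 1.57 ± 0.633 in SB (SD, n = 17 PB and 13 SB livers).

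Summed over the window, PB minus SB came to 8.27 sites per 10000. The section from 21000 kb held 7.01 of this, or 84.8%. The next section held 1.51, while the first and the last came to -0.0139 and -0.232. Of the 200 steps of 10 kb, 98 had a higher PB mean and 102 a lower one. The PB gains summed to 12.035 and the PB losses to -3.76. No more than 7 steps were needed to reach 50% of the net excess.

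**Figure D2:**
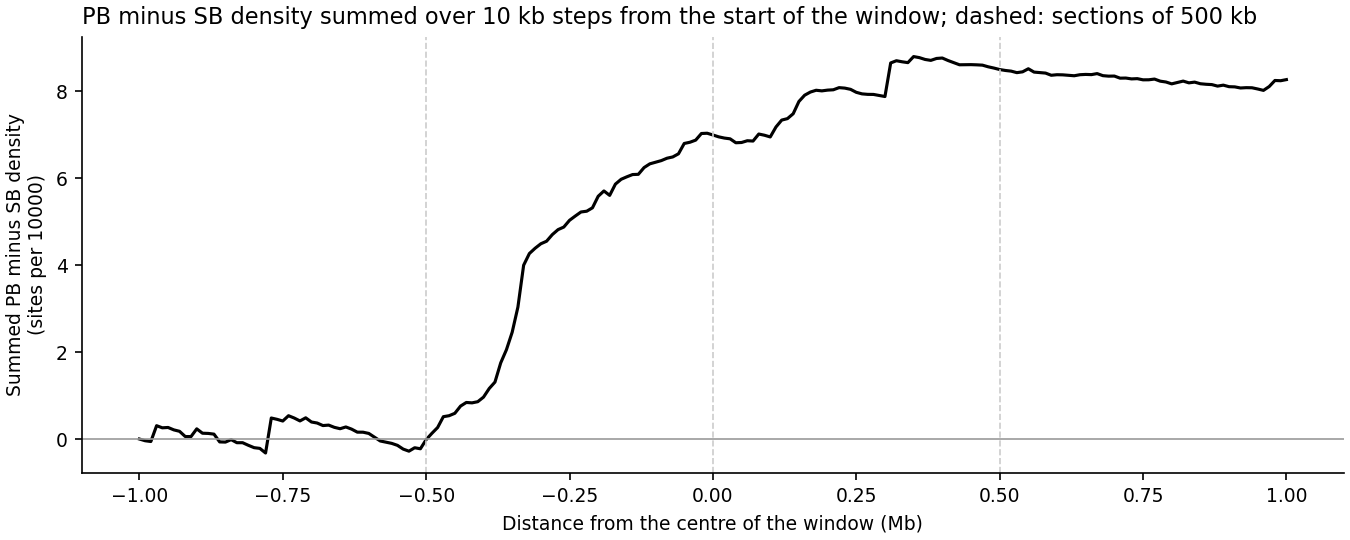
PB minus SB density summed over 10 kb steps from the start of the window (vertical axis, sites per 10000) against the distance from the window's centre in Mb, with dashed lines between sections of 500 kb. The sum stays near 0 over the first section, climbs by 7.01 over the second and ends at 8.27.

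PB sites were also more concentrated than SB sites. The densest 20 of the 200 steps, picked in each group separately, held 41.5% of the PB density and 23.8% of the SB density. The median step had 0.0528 sites per 10000 in PB livers and 0.0608 in SB livers, so the typical step was no denser in PB. In 57 steps at least 10 of 17 PB livers had a site, whereas 3 steps had a site in at least 10 of 13 SB livers. The limit of 10 is a larger share of the SB livers, and PB had more window records (2699 against 1335). These step counts are therefore not like for like. There were 12 steps with no PB site and 3 with no SB site.

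**Figure D3:**
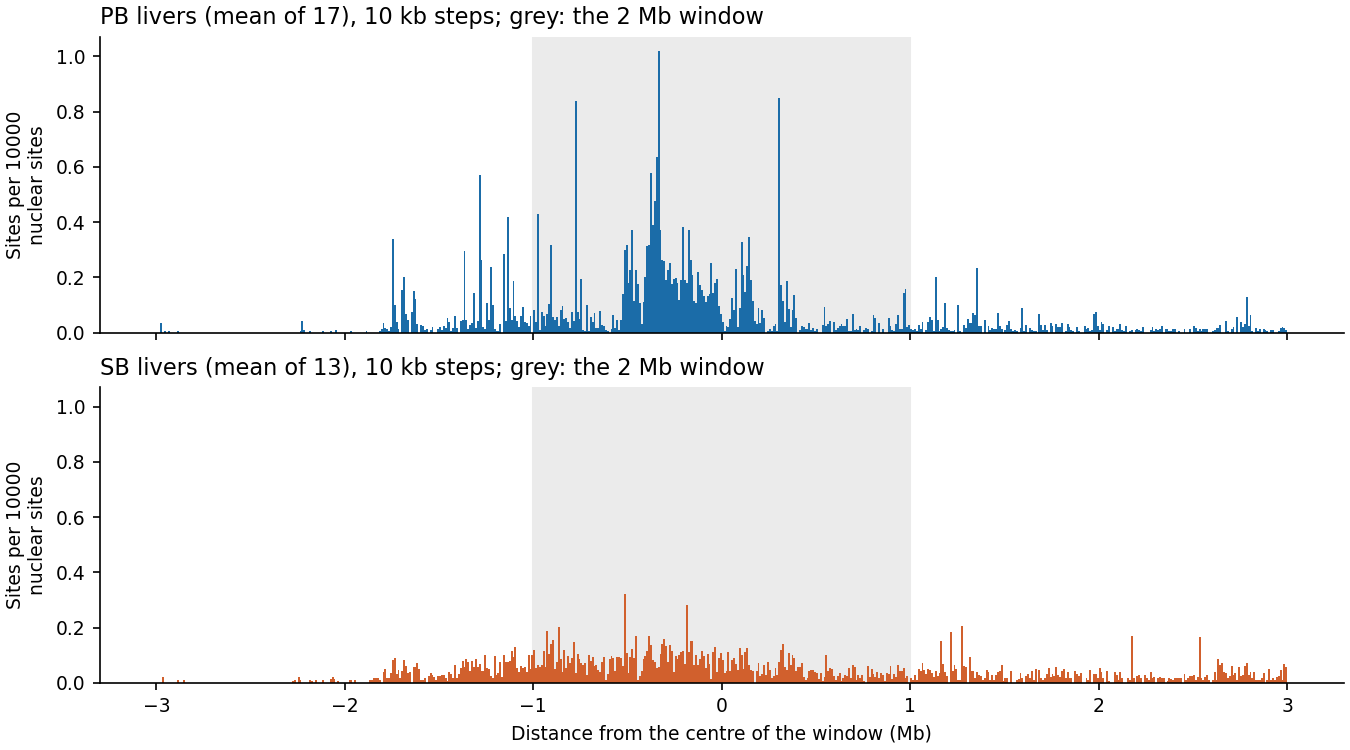
Mean density in 10 kb steps (sites per 10000 nuclear sites) over 17 PB livers above and 13 SB livers below, against the distance from the window's centre in Mb, with the window in grey. PB shows a broad rise left of the centre that reaches 1.02 and separate steps at 0.848 and 0.840, while the densest SB step has 0.322 (0.205 without the shallow SB liver 13).

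The densest PB stretch of the window was the 100 kb from 21100 to 21200 kb. PB livers had 4.62 ± 0.707 sites per 10000 there (lowest 3.31, median 4.69, highest 6.05) and SB livers 1.09 ± 0.536 (lowest 0, median 1.06, highest 1.87). Every PB liver was above every SB liver. This was so in 1 of the 20 steps of 100 kb in the window, beside 0.340% of 20887 steps tested in the genome, and in none was every SB liver above every PB liver (0.00479% in the genome). The same 100 kb had the rank 1 by mean PB density among 25904 steps of 100 kb that held a site. It carried 20.999 ± 3.40% of the window's sites in PB livers and 7.48 ± 3.38% in SB livers. It held 42.7% of the net PB excess. Without it the window had 17.6 sites per 10000 in PB livers and 12.8 in SB livers, a ratio of 1.37.

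A limma-voom fit over all 100 kb steps gave the background of such differences. It called 8 of the 20 window steps higher in PB at an adjusted p under 0.05, where the genome background was 10.3% of 20887 steps, and 4 higher in SB, where it was 14.5%. Since the window was chosen on this contrast, nothing is read from these counts. The flanks had 3 steps called higher in PB and 3 called higher in SB among 26 tested. Genome-wide, the median of the fitted log2 differences (PB minus SB) was -0.33. With that shift removed, 9 window steps were called higher in PB and 1 higher in SB, and the genome counts were 3583 higher in PB and 791 higher in SB in place of 2157 and 3021.

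**Figure D4:**
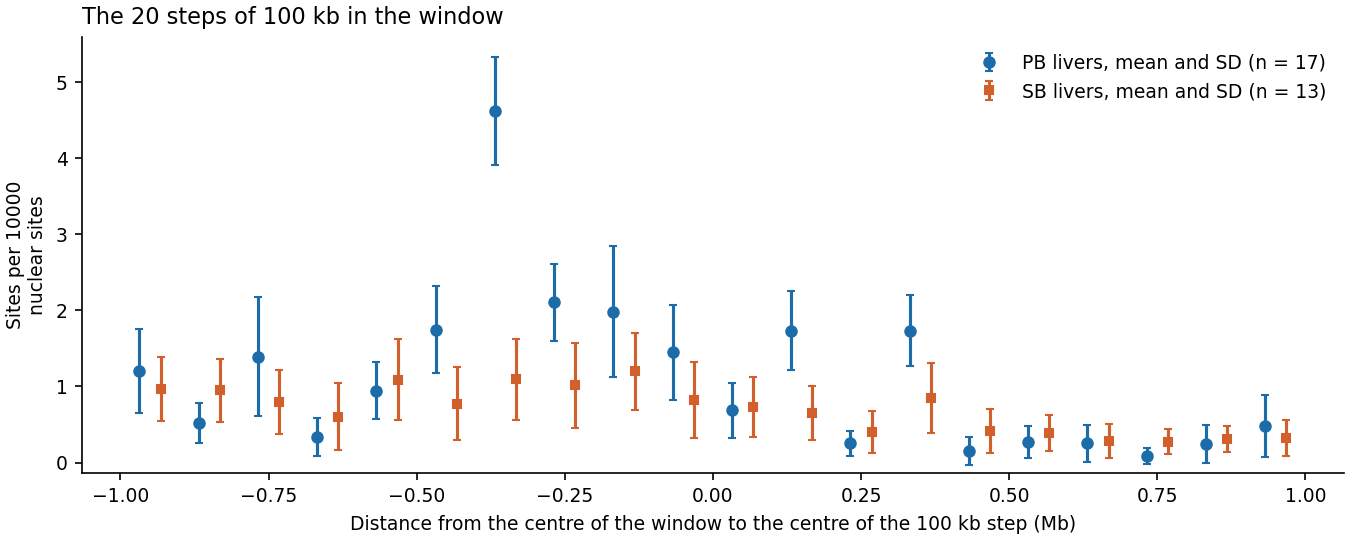
Mean and SD of the density in each of the 20 steps of 100 kb (sites per 10000 nuclear sites) in 17 PB and 13 SB livers, against the distance of the step's centre from the window's centre in Mb. The PB step at 4.62 stands above all others, and SB means stay between 0.271 and 1.20.

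The 8 PB steps were those starting at 20700, 21000, 21100, 21200, 21300, 21400, 21600 and 21800 kb. The fitted log2 difference (PB minus SB) was 2.00 (SE 0.17) in the step from 21100 kb and 1.33 (SE 0.23) in the step from 21000 kb. It was 1.08 (SE 0.19), 0.88 (SE 0.19) and 0.93 (SE 0.22) in the following 3 steps. The separate steps from 20700, 21600 and 21800 kb had 0.70 (SE 0.21), 1.16 (SE 0.21) and 0.91 (SE 0.20). PB livers had 1.39 ± 0.782 sites per 10000 in the step from 20700 kb, against 0.801 ± 0.420 in SB livers. In the step from 21600 kb PB livers had 1.73 ± 0.516 and SB livers 0.655 ± 0.355. In the step from 21800 kb PB livers had 1.73 ± 0.465 and SB livers 0.848 ± 0.454 (SD, n = 17 PB and 13 SB livers).

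The 4 SB steps started at 20600, 20800, 21900 and 22200 kb and had log2 differences of -0.70, -0.94, -1.66 and -1.02. The step from 21900 kb followed directly on a PB step. It held 12 records in 10 of 17 PB livers and 44 records in 12 of 13 SB livers, that is 0.148 ± 0.184 sites per 10000 in PB and 0.413 ± 0.294 in SB.

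At 10 kb the densities were compared by size alone. Of 86 steps with a mean of at least 0.1 in either group, 41 were at least 2-fold denser in PB (47.7%), against 46.4% of such steps in the genome. For SB it was 8 steps (9.30%), against 25.0% in the genome. In steps of 20 kb, 22 of 69 were at least 2-fold denser in PB (31.9%, against 23.1% in the genome). In SB it was 13 (18.8%, against 30.1% in the genome). With 10 kb steps shifted by 5 kb, 37 of 83 were denser in PB (44.6%, against 46.4% in the genome). In SB it was 8 (9.64%, against 24.9%). At 3-fold, 27 of the 86 were denser in PB (31.4%, against 30.9% in the genome). In SB it was 5 (5.81%, against 19.6%). A step could pass through the group in which it was dense. The PB share lay near the background in steps of 10 kb and above it in steps of 20 kb, and nothing is read from either.

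3 single steps of 10 kb stood out by the size of the PB excess. The step from 21160 to 21170 kb held 119 PB records at 40 positions in 16 of 17 livers and 6 SB records in 5 of 13 livers. Its density was 1.02 ± 0.576 in PB (0 to 2.44) and 0.0564 ± 0.0796 in SB (0 to 0.231). The step from 20720 to 20730 kb held 97 PB records at 20 positions in 17 of 17 livers, against 4 SB records, with densities of 0.840 ± 0.330 in PB and 0.0341 ± 0.0705 in SB. The step from 21800 to 21810 kb held 95 PB records at 33 positions in 17 of 17 livers, against 7 SB records, with densities of 0.848 ± 0.360 in PB and 0.0755 ± 0.131 in SB. By PB density they had the ranks 28, 82 and 79 among 245416 steps of 10 kb. The steps from 21150 and 21120 kb followed by size of the excess, with 0.634 in PB against 0.0545 in SB, and 0.578 in PB against 0.137 in SB.

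The largest differences in the other direction were small. The step from 20630 kb had 0.0236 in PB and 0.203 in SB, of which the largest share came from a single site in the shallow SB liver 13, worth 2.04 there. The step from 20570 kb had 0.0686 in PB and 0.189 in SB, and its 11 PB records were all on the plus strand. The step from 20710 kb had 0.0420 in PB and 0.148 in SB, and it directly precedes the dense PB step from 20720 kb. The densest SB step, from 20980 kb, had 0.299 in PB livers and 0.322 in SB livers. The next, from 21310 kb, had 0.180 in PB and 0.282 in SB. Each of these 2 steps also held a site of SB liver 13, worth 2.04. Without SB liver 13 the SB mean was 0.0495 in the step from 20630 kb, 0.179 in that from 20980 kb and 0.135 in that from 21310 kb, and the densest SB step was the one from 20570 kb, at 0.205.

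Positions were used repeatedly across PB livers and seldom across SB livers. In the window 405 of 1848 PB positions (21.9%) occurred in 2 or more livers, against 34 of 1299 SB positions (2.62%). In the flanks the shares were 17.1% of PB and 1.77% of SB positions, and in the whole nuclear genome 16.9% of PB and 1.91% of SB positions. A window with more PB sites, from 17 PB against 13 SB livers, has more chances of repeated positions, so these shares are a description. PB and SB also use different target letters (TTAA and TA), which the shares do not take into account. In a PB liver 47.6 ± 4.78% of window records lay at positions shared with another PB liver (SD, n = 17), against 4.84 ± 2.71% in an SB liver (SD, n = 13). 40 PB positions (2.16%) occurred in 5 or more livers, close to the 2.03% of PB positions in the flanks and 2.04% in the nuclear genome. No SB position of the window occurred in more than 2 livers. PB and SB shared 6 target positions, which were 0.325% of the PB positions and 0.462% of the SB positions, and each of the 6 occurred in 1 PB liver.

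7 PB positions occurred in 10 or more of the 17 livers. The position at 20723889 to 20723892 was found in 16 livers, all but PB liver 1, with 29 records. The one at 20723768 to 20723771, which starts 121 bp before it, was found in 14 livers with 22 records. Together they gave 51 records, and each of the 17 PB livers held at least 1 of them, 13 holding both. The 1 kb around them, from 20723 to 20724 kb, held 76 PB records at 9 positions, with 2 to 8 records in each of 17 PB livers, against 1 SB record in 1 of 13 SB livers.

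The other 5 positions lay in the dense steps or near them. The position at 21165648 to 21165651 was found in 15 livers with 21 records, and the one at 21162780 to 21162783, which starts 2868 bp before it, in 10 livers with 10 records. The positions at 21800498 to 21800501 and 21807699 to 21807702, with starts 7201 bp apart, were found in 11 and 10 livers with 14 and 15 records. The position at 21641127 to 21641130 was found in 10 livers with 14 records. None of the 7 had an SB record at the same target. The SB positions of widest use, at 21922416, 21105206 and 21285075, were found in 2 of 13 livers each, like 31 others.

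**Figure D5:**
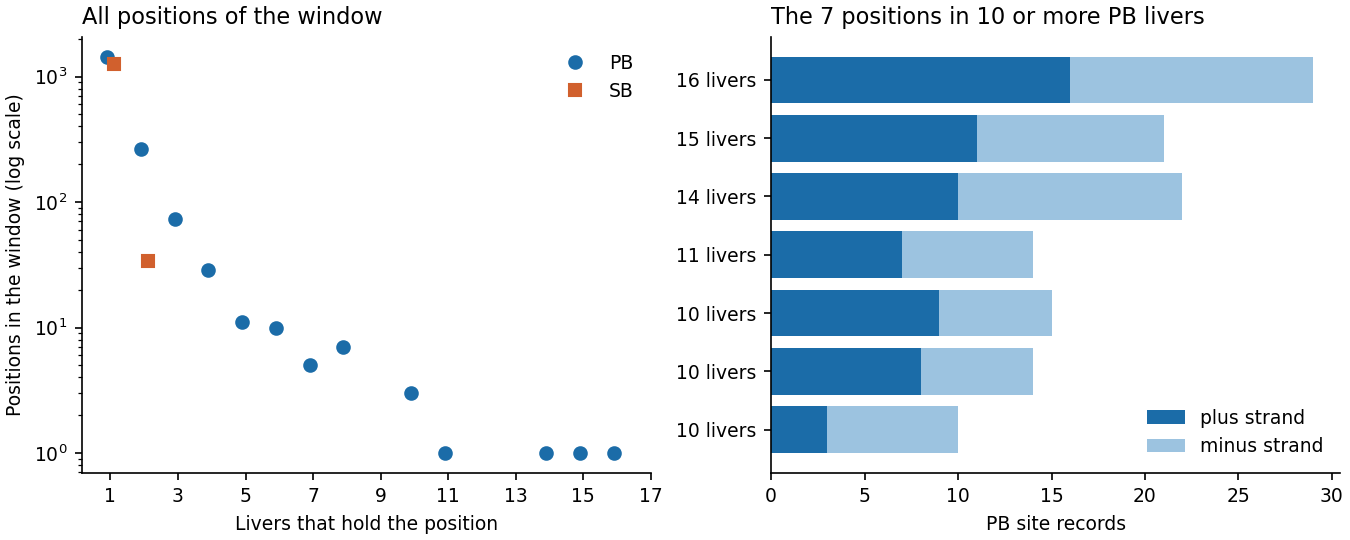
Left, the number of window positions (vertical axis, log scale) by the number of livers that hold them, for PB and SB. Right, the plus and minus strand records of the 7 positions held by 10 or more of 17 PB livers. PB positions extend to 16 livers and SB positions end at 2, and all 7 PB positions have records on both strands.

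Each record carries a strand, taken here as deposited. In the window 50.6 ± 3.09% of PB records (45.4 to 55.0%, n = 17) and 47.3 ± 4.47% of SB records (39.3 to 55.4%, n = 13) were on the minus strand (SD). The difference of 3.29 percentage points did not pass after adjustment over 8 tests (two-sided permutation test with 100000 resamples, p = 0.026, adjusted p = 0.11). It passed without SB liver 7 (3.96 points, permutation test, adjusted p = 0.036). Without any other single liver it did not pass (permutation test, adjusted p = 0.054 to 0.22). In PB livers the minus share was 1.26 points lower in the window than in the flanks (8 livers above, 9 below, sign-flip permutation test, adjusted p = 0.63). In SB livers it was 3.17 points lower (4 above, 9 below, exact sign-flip permutation test, adjusted p = 0.51). Without the shallow SB liver 13, whose flanks held 4 sites, the SB difference was -5.52 points (exact sign-flip permutation test, adjusted p = 0.036).

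Most widely used PB positions had records on both strands. Of the 40 positions in 5 or more PB livers, 38 had records on both strands. A position with that many records is likely to show both strands in any case, so this is a description. Both strands were seen at 121 of 263 positions in 2 PB livers and at 25 of 34 positions in 2 SB livers. The position at 20723889 had 16 plus and 13 minus records, and 13 livers held it on both strands. The position at 21165648 had 11 plus and 10 minus records, and the one at 20723768 had 10 plus and 12 minus. At 21162780 the records were 3 plus and 7 minus, with no liver holding both. A position was held on both strands in 1 liver in 103 of 2596 pairs of position and PB liver (3.97%), beside 2.50% over all nuclear PB positions. In SB livers it was 2 of 1333 pairs (0.150%), beside 0.105% over all nuclear SB positions.

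Column 4 of the liver tables gives a whole number for each site. The sources used here do not say what it counts. It is called support below and was read as sequencing reads. Since PCR copies were not told apart by molecular identifiers, it is no count of cells or molecules. The median number in the window averaged 70.1 in PB livers and 54.9 in SB livers, while that of all other sites of the same livers averaged 70.3 in PB and 55.2 in SB. The within-liver difference of the medians was 0.01 on the log2 scale in PB livers (8 of 17 above 0 and 5 below, sign-flip permutation test, adjusted p = 0.81). In SB livers it was -0.05 (4 of 13 above 0 and 9 below, exact sign-flip permutation test, adjusted p = 0.48). The difference between the groups was 0.05 (permutation test, adjusted p = 0.48). At these numbers of livers no difference in support was detected between the window and the rest of the genome.

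Some of the most widely used positions also carried large numbers. PB records at positions in 5 or more livers had a median of 1.11 times their liver's median, against 0.972 times at positions in 1 liver. The position at 20723889 had a median number of 105 over its 29 records, which ranged from 3 to 264. Its neighbour at 20723768 had 90.5, whereas the position at 21807699 had 36. The 3 PB records with the largest number for their liver were all at that pair of positions. They were 20723768 in PB liver 8, with 196 or 5.94 times the liver median, 20723889 in PB liver 10, with 223 or 5.72 times, and 20723768 in PB liver 7, with 93 or 5.47 times. The 3 largest SB records, at 21426546 in SB liver 5, 21203684 in SB liver 6 and 21777823 in SB liver 2, had 4.23, 4.02 and 3.90 times the liver median and lay at positions found in 1 SB liver. In PB livers 35 of 2699 window records (1.30%) were in the top 1% of their liver, beside 0.976% genome-wide, and in SB livers 13 of 1335 (0.974%), beside 0.973%.

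PB livers 13 to 17 and PB livers 1 to 12 were compared because deposited merged tables cover livers 1 to 12. The X share was 3.28 to 3.72% in PB livers 13 to 17, while PB livers 1 to 12 hold both X ranges given above. The comparison was not adjusted for that split. PB livers 13 to 17 had 23.2 ± 4.20 sites per 10000 in the window (SD, n = 5) and PB livers 1 to 12 had 21.8 ± 1.49 (SD, n = 12), a log2 difference of 0.07 (exact permutation test, p = 0.4, adjusted p = 0.54). Without PB liver 17 that difference was -0.01. The window was 6.61 ± 1.84 times as dense as its flanks in PB livers 13 to 17 and 4.38 ± 0.777 times in PB livers 1 to 12. The log2 difference of 0.57 did not pass after adjustment (exact permutation test, p = 0.009, adjusted p = 0.072). In PB livers 13 to 17 flank density was 4.91 before and 2.55 after the window. In PB livers 1 to 12 it was 5.87 and 4.29. PB livers 13 to 17 were shallower, with 7 to 40 flank sites each, against 62 to 130 in PB livers 1 to 12. Without PB liver 15, which had the most flank sites of the 5, the difference was 0.74 (exact permutation test, adjusted p = 0.0088). Leaving out PB liver 13, 14, 16 or 17 instead gave differences of 0.50, 0.58, 0.45 and 0.56. By the same test their adjusted p-values were 0.11, 0.11, 0.12 and 0.11, all above the threshold. The run without PB liver 15 thus stood alone, and the livers it kept from this range had 7 to 22 flank sites each.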

How the data were processed

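Insertion sites were given for 17 PB and 13 SB livers. The deposited liver tables list chromosome, position, strand and a number whose meaning is not given in the sources used here. Those numbers, of unit other, are the authors' own, with 3 as the smallest. Each PB site covers 4 bp, an SB site 2 bp. The deposited merged tables hold counts of records per position for livers 1 to 12, and all 1716 PB and 1295 SB window counts matched the liver tables. Cutadapt, BWA and GRCm39 are named, without versions, per the submitters' processing notes.

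Nuclear sites of each liver were counted in the window, in 2 Mb flanks and in steps of 10 and 100 kb, per 10000 sites, using pandas 2.3.3, scipy 1.17.1 and numpy 2.4.6 in Python 3.11.15. Steps of 100 kb that averaged 1 site per liver or more were fitted with limma 3.58.1 (voom weights, library size set to all nuclear sites, threshold 0.05 on Benjamini-Hochberg adjusted p) in R 4.3.3, with edgeR 4.0.16 as an alternative. The fit was tested on simulated data. Permutation tests were two-sided, on liver values, exact where stated and otherwise with 100000 resamples, and 8 tests were adjusted together. Each liver was 1 replicate, and p-values measure the spread between these livers.

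Named 10 kb steps are the 5 largest PB excesses, the 3 largest SB excesses and the 3 densest of each group. Named positions are those in 10 or more PB livers and the 3 in most SB livers. For support, the 3 records largest for their liver were taken in each group. The window, the rules and the tests were chosen with earlier results of these data known. Livers of the same number did not deviate together over 13 pairs (correlations from -0.01 to 0.02), so numbers were not taken to pair them. These correlations concern single numbers and not ranges of numbers. In both groups the X share differed between the lower and the higher number range given above. The tests in the reported setting were not adjusted for these ranges. Alternatives covered a number of at least 10, merging of sites within 10 bp, positions in 1 liver, subsets of livers, other steps, filters and scalings.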

Additional observations from a re-analysis of the deposited data

How the results depend on the processing

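Of 205 alternative values, 189 kept direction and call or stayed near the value reported. Many of the 205 came from leaving out 1 liver, which changes little. Near was also wide for the ratio against the flanks, where 1.31 in livers 1 to 6 counted as near 1.83. Counts of called steps changed under several settings. No strand, support or PB liver test passed in the reported setting, so none could lose a call. Using only positions found in 1 liver, which removes more PB than SB sites, the window density ratio PB over SB was 1.39. Under that setting the 100 kb window steps called numbered 6 higher in PB and 0 higher in SB, with 343 and 80 in the genome in place of 2157 and 3021, the support difference in PB livers was -0.0145, and PB livers 13 to 17 minus 1 to 12 gave -0.083 in log2 density. The density ratio was 1.35 in livers 1 to 6 and 1.37 without the 100 kb from 21100 kb, both chosen after seeing the data. A support number of at least 10 gave a PB support difference of -0.00343. Centring on the median step, also added later, left 1 step called higher in SB, and TMM scaling 3. The 10 kb steps at least 2-fold denser numbered 22 for PB and 13 for SB in steps of 20 kb, and 27 for PB and 5 for SB at 3-fold. In livers 1 to 12 the SB strand difference from the flanks was -5.52 points (permutation test, adjusted p = 0.036). The causes were not tested.

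Leaving out each liver in turn gave density ratios of 1.54 to 1.63, ratios against the flanks of 1.75 to 1.89, strand differences PB minus SB of 2.62 to 3.96 points and support differences of 0.033 to 0.0757. Among these runs the strand difference passed only without SB liver 7 (3.96 points, permutation test, adjusted p = 0.036). Among PB livers 13 to 17 the density difference was -0.0135 to 0.141, below 0 without PB liver 17, and the flank ratio difference 0.448 to 0.743. With the liver number as a replicate block the density ratio was 1.60, the ratio against the flanks 1.67, the strand difference 3.82 points (permutation test, p = 0.056, adjusted p = 0.22) and the support difference 0.0737 (permutation test, p = 0.066, adjusted p = 0.18), and 8 and 4 steps of 100 kb were called higher in PB and in SB. With the block, the flank steps called were 1 higher in PB and 5 higher in SB, in place of 3 and 3, and the genome steps called higher in SB 4836, in place of 3021. The strand and support tests stayed above the threshold under the block. Depth limits the 10 kb steps: the densest PB step, from 21160 kb, had a median of 6 records in a PB liver.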
